A study of Mus musculus with 167 samples.

Results

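Chemokine and inflammatory cytokine genes of single lymphoid-primed multipotent progenitors (LMPPs) were followed across cells and ages: the chemokine genes Ccl3, Ccl4, Ccl9 and Cxcl2, the cytokine genes Tnf and Il1b, and the NF-kB inhibitor genes Nfkbia and Tnfaip3. These are 8 of the 38924 gene rows of the table. They were picked by name with their levels in these cells already known, so their values by age are given as a description and were not tested. LMPPs are bone marrow progenitors that keep lymphoid and myeloid potential and have largely lost the potential to make megakaryocytes and red cells. The cells came from wild-type C57BL/6J female mice of 14 months and of 4 months. The sort took lineage-negative, Sca-1+, c-Kit+, CD34+ cells without CD150 and with high Flt3, which were captured on a Fluidigm C1 chip that prepares cDNA from 1 cell per chamber. A labelled sample is a single cell, and the labels neither name animals nor say how many mice were used, so each age is treated as 1 sample. Differences between the ages therefore have no replicate check and no p-value.

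NF-kB is a family of transcription factors held in the cytoplasm of resting cells by inhibitor proteins, of which Nfkbia (IκBα) is the best known. Signals from receptors of tumour necrosis factor, interleukin-1 and microbial products activate a kinase complex that marks the inhibitor for destruction, and the released factor switches on chemokine and cytokine genes together with Nfkbia and Tnfaip3, which end the response. Many of the resulting mRNAs are short-lived because their 3′ ends carry AU-rich elements. In the bone marrow, Ccl3 is known as a chemokine that restrains the cycling of primitive progenitors.

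The table gives TPM, a transcript level scaled for transcript length and to the same total of 1000000 in every cell. The sequencing depth behind a value is therefore unknown, and the number of detected genes is the nearest stand-in. Detection means TPM 1 or more, and cells with 1000 or more detected genes were kept. These were 66 of 84 columns of 14 months and 64 of 84 columns of 4 months. The 14-month columns carry a set number, 4 or 5, which the labels do not explain. Set 4 kept 29 of 45 columns and set 5 kept 37 of 39. Kept cells had a median of 3281 detected genes at 14 months (3230 for set 4, 3376 for set 5) and 3974.5 at 4 months, and the median share of TPM from mitochondrial transcripts was 17.7% at 14 months and 12.4% at 4 months. Flt3, which the sort selects for, was detected in 92.4% of 14-month cells and in all 4-month cells, while Slamf1, which encodes CD150, was listed at 0 in every kept cell.

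The sequences just upstream of a RefSeq start of 4 of the genes and near the end of 5 mRNAs show features for which this group is known. A RefSeq promoter window of 300 bases, from 250 before to 50 after the start of transcription on build GRCm38.p6, was matched for 7 of the 8 genes (all but Ccl4). The NF-kB consensus, a site of 10 bases, was searched on both strands. It was found in the windows of 4 of the 7 genes, Ccl9, Cxcl2, Nfkbia and Tnfaip3, against 5.14% of all 27025 genes with a window. The AP-1 site TGANTCA, bound by Fos and Jun proteins, was found for 2 of the 7, Ccl9 and Tnfaip3, against 8.97% of all genes. No match for Ccl3, Tnf or Il1b says only that these letters are not in this window. The upstream stretches with a match are shown on the strand of the gene, with the NF-kB match in capitals. In Cxcl2 2 matches overlap by all but 1 base, 97 to 87 bases before the start. Nfkbia has its match 29 to 20 bases before the start and Ccl9 35 to 26 bases before it. Tnfaip3 has 1 match at 125 to 116 and another at 12 to 3 bases before its RefSeq start. The GENCODE span of Tnfaip3, chr10:19000910-19015657, reaches past that start, so this stretch lies inside the annotated gene. Another RefSeq window of Tnfaip3, at a different start, had no match.
Cxcl2, chr5:90903769-90903870, plus strand: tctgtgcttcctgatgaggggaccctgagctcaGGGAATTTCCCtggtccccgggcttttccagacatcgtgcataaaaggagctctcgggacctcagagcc
Ccl9, chr11:83578637-83578766, minus strand: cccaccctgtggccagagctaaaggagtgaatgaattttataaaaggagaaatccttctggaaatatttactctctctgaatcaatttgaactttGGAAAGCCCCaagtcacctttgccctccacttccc
Nfkbia, chr12:55492648-55492777, minus strand: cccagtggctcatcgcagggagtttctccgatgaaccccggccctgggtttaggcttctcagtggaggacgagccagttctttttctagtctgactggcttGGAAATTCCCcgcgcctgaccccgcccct
Tnfaip3, chr10:19015411-19015540, minus strand: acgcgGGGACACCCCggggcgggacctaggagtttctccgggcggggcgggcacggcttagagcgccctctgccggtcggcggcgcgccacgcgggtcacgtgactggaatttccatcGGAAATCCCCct

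In the 3′ UTRs of GENCODE vM21 (build GRCm38), the AU-rich pentamer ATTTA occurred in all 8 genes, against 65.2% of 21020 protein-coding genes. That share depends on length. Among genes with a 3′ UTR of like length it ran from 37.5% for Ccl4 to 94.0% for Ccl9. It was 89.0% for Tnfaip3 and 84.7% for Cxcl2, so presence alone says little for the longer 3′ UTRs. Tnf had 8 pentamers in 764 bases and Cxcl2 had 11 in 1494 bases. The longer nonamer TTATTTATT, whose copies hold a pentamer each, occurred 5 times in Tnf, 4 times in Cxcl2 and once each in Nfkbia and Tnfaip3, against 7.66% of genes with any. Per kilobase, Ccl3 had the densest 3′ UTR of the group with 12.2 pentamers, followed by Tnf with 10.5, Il1b with 8.71, Cxcl2 with 7.36 and Ccl4 with 6.62. Those 5 lie above the 95th percentile of all genes (5.88 per kilobase), whereas Nfkbia (3.91), Tnfaip3 (2.75) and Ccl9 (2.03) lie below it and above the median of 1.24. The 30 bases richest in the element are shown for 3 genes with dense copies, Tnf, Cxcl2 and Ccl3, and 2 with sparser ones, Nfkbia and Ccl9, with each pentamer in capitals.
Tnf, chr17:35199679-35199708, minus strand: attATTTAttATTTATTTAttATTTATTTA
Cxcl2, chr5:90905327-90905356, plus strand: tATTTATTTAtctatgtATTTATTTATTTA
Ccl3, chr11:83648085-83648114, minus strand: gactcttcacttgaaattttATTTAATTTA
Nfkbia, chr12:55489620-55489649, minus strand: gaacctaatgaaaggaccacgttttATTTA
Ccl9, chr11:83573245-83573274, minus strand: tgagtccATTTAtacagtggatctcATTTA

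At 14 months the group was found in fewer cells than at 4 months, and 7 of the 8 genes had a lower mean on the log2(TPM + 1) scale, as did 77.0% of all measured genes. Ccl4 and Nfkbia differed most between the ages and Ccl9 least. Il1b was listed at 0 in all 130 kept cells. Differences are given as 14 months minus 4 months in mean log2(TPM + 1), relative to the median of the 9224 measured genes, those detected in 10% or more of cells on average over the ages. That median was itself lower by 0.36 at 14 months. The errors given are SDs over cells, since cells of 1 sample are not replicates. Pooled over both sets, 4 of the 7 measured members were lower by 1 or more and none was higher by 1 or more, against 5.08% of the measured genes that were lower and 3.37% that were higher. The count was 5 of 7 in set 4, against 6.75% of measured genes, and 3 of 7 in set 5, against 6.56%. Both sets are set against the same 4-month cells, so their values are not independent. Since the genes were picked with these values known, nothing is read from the counts. The median over the 7 members was -1.01, where that over all measured genes is 0 by construction, and the middle part of all measured genes ran from -0.36 to 0.33 (lower to upper quartile).

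**Figure D1:**
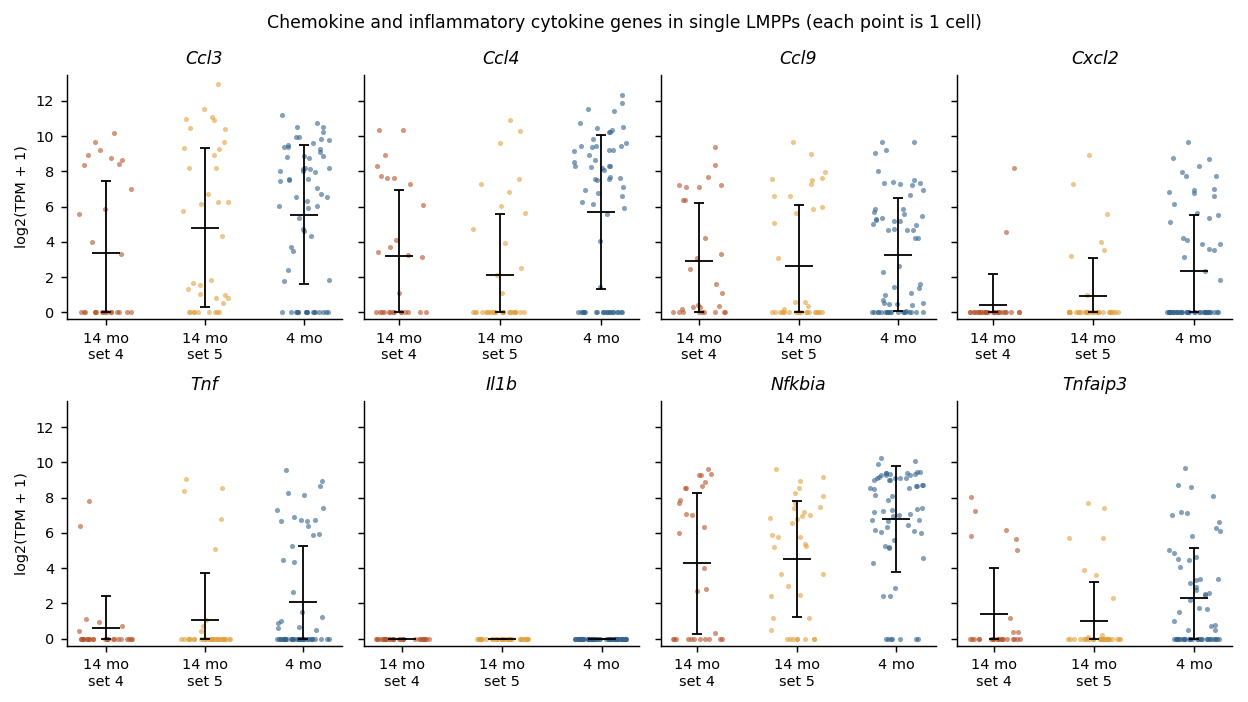
Level of each of the 8 genes in every kept cell, as log2(TPM + 1) on the vertical axis, for 14 months set 4 (29 cells), 14 months set 5 (37 cells) and 4 months (64 cells), left to right in each panel. Each point is 1 cell, the horizontal mark is the mean and the bar is the SD over cells (cut at 0); Il1b is at 0 in every cell, and Cxcl2, Tnf and Tnfaip3 are at 0 in most 14-month cells.

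Ccl3 (ENSMUSG00000000982, chr11:83647844-83649355, minus strand, GRCm38) encodes a chemokine that attracts monocytes and other leukocytes. Over all cells, the lowest, median and highest levels were 0, 0 and 1149 TPM in 14-month set 4, 0, 19.2 and 7989 TPM in 14-month set 5, and 0, 98.5 and 2332 TPM at 4 months. It was detected in 37 of 66 cells at 14 months (56.1%, exact Clopper-Pearson 95% interval 43.3 to 68.3%) and in 47 of 64 cells at 4 months (73.4%, 60.9 to 83.7%). These and the other intervals on shares cover counting error only. The ranges of the ages overlap, and the highest single cell is a 14-month one. Where Ccl3 was detected, its median level was 330 TPM in 14-month cells and 264 TPM in 4-month cells, so its lower 14-month mean on the log2 scale goes with fewer cells that had it. The relative difference was -1.01 (mean log2(TPM + 1) 4.18 ± 4.35 at 14 months and 5.54 ± 3.94 at 4 months, SD over cells). It was -1.74 in set 4 and -0.40 in set 5, so only set 4 is past a difference of 1. In plain TPM the pooled direction differed, with means of 427 at 14 months and 334 at 4 months, but the mean was 166 TPM in set 4 and 632 TPM in set 5, so only set 5 was above the 4-month cells. Without the highest cell of each age these were 311 TPM at 14 months and 302 TPM at 4 months.

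Ccl4 (ENSMUSG00000018930, chr11:83662584-83664683, plus strand) encodes a close relative of Ccl3, and starts 13228 bases from Ccl3 with no protein-coding gene between them. Its lowest, median and highest levels were 0, 1.11 and 1317 TPM in 14-month set 4, 0, 0 and 1947 TPM in 14-month set 5, and 0, 184 and 5118 TPM at 4 months. Cells with Ccl4 were 28 of 66 cells at 14 months (42.4%, 30.3 to 55.2%) and 43 of 64 cells at 4 months (67.2%, 54.3 to 78.4%). Ccl4 also had a lower median in the cells that had it, 88.8 TPM at 14 months and 365 TPM at 4 months, whereas Ccl3 did not. Levels of 100 TPM or more were seen in 14 cells of 14 months (21.2%) and in 36 cells of 4 months (56.2%). The relative difference was -2.74 pooled, -2.07 in set 4 and -3.24 in set 5, and the pooled value ranks 21 from the lowest of the 9224 measured genes. The 5 highest cells held 74.0% of all Ccl4 TPM over the 66 cells of 14 months and 48.2% over the 64 cells of 4 months. They held 84.3% in set 4 (29 cells) and 94.0% in set 5 (37 cells), but there 5 cells are a larger part of the group.

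The balance of Ccl3 and Ccl4 was not the same in every group. TPM is scaled for length, so levels of these genes can be set side by side. Summed over cells, Ccl3 was 3.17 times Ccl4 at 14 months and 0.629 times Ccl4 at 4 months. Without the highest cell for each gene, the ratios were 2.91 at 14 months and 0.659 at 4 months. The sets differed in this, with a ratio of 1.12 in set 4 and 5.09 in set 5. Cells with Ccl3 above Ccl4 numbered 24, against 5 with Ccl4 above Ccl3, in set 5, while the counts were 9 against 11 in set 4 and 23 against 30 at 4 months. The difference between the sets has no test, since each is 1 sample or part of one.

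Ccl9 (ENSMUSG00000019122, chr11:83572919-83578636, minus strand) encodes a chemokine of the same cluster, 69207 bases from Ccl3 with 2 protein-coding genes between them, that acts through Ccr1. Its lowest, median and highest levels were 0, 1.17 and 675 TPM in 14-month set 4, 0, 0 and 814 TPM in 14-month set 5, and 0, 4.62 and 818 TPM at 4 months. It was detected in 29 of 66 cells at 14 months (43.9%, 31.7 to 56.7%) and in 38 of 64 at 4 months (59.4%, 46.4 to 71.5%). Cells at 100 TPM or more made up 21.2% at 14 months and 20.3% at 4 months. Where Ccl9 was found, 14-month cells had a median of 95.7 TPM and 4-month cells one of 38.8 TPM, and the mean over all cells was 70.9 TPM in 14-month cells and 76.0 TPM in 4-month cells. Ccl9 was the member closest to the median gene, at -0.17 pooled, 0.05 in set 4 and -0.32 in set 5. Some cells list Ccl9 at a level between 0 and 1 TPM: any level above 0 was seen in 38 of 66 cells at 14 months and in 45 of 64 at 4 months. Of the 50-base stretches of its transcripts, 2.00% also occur in transcripts of other genes, so some of its reads may be shared.

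Cxcl2 (ENSMUSG00000058427, chr5:90903871-90905938, plus strand) encodes a neutrophil attractant that acts through Cxcr2. Its median was 0 in every group, and the highest level was 291 TPM in 14-month set 4, 489 TPM in 14-month set 5 and 805 TPM at 4 months. The gene was present in 8 of 66 cells at 14 months (12.1%, 5.38 to 22.5%) and in 26 of 64 at 4 months (40.6%, 28.5 to 53.6%). Where it was found, 14-month cells had a median of 34.7 TPM and 4-month cells one of 59.9 TPM. The relative difference was -1.31 pooled, -1.50 in set 4, where 2 of 29 cells had the gene, and -1.12 in set 5, where 6 of 37 had it. Of the 50-base stretches of its transcripts, 3.28% also occur in transcripts of 1 other gene, so some of its reads may be shared.

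Tnf (ENSMUSG00000024401, chr17:35199381-35202007, minus strand) encodes tumour necrosis factor, a cytokine that activates NF-kB in the cells it reaches. Its median was 0 in every group, and its highest level was 226 TPM in 14-month set 4, 535 TPM in 14-month set 5 and 761 TPM at 4 months. Tnf was found in 9 of 66 cells at 14 months (13.6%, 6.43 to 24.3%) and in 22 of 64 at 4 months (34.4%, 22.9 to 47.3%), and these intervals overlap slightly. Where it was found, 14-month cells had a median of 108 TPM and 4-month cells one of 100.3 TPM. The relative difference was -0.86 pooled, -1.06 in set 4 and -0.67 in set 5.

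Il1b (ENSMUSG00000027398, chr2:129364570-129371139, minus strand) encodes a cytokine made as an inactive precursor that caspase-1 cuts. It was listed at 0 in all 66 cells of 14 months, where 3 cells would be 4.55%, and in all 64 cells of 4 months, where 3 cells would be 4.69%. The upper ends of the exact 95% intervals are 5.44% for the 14-month cells and 5.60% for the 4-month cells. These limits apply to cells with a listed level, not to cells that express the gene. It was also at 0 in the 38 columns that were left out. The gene overlaps Il1bos on the opposite strand. Genes of its processing were present: Casp1, the caspase that cuts the precursor, was detected in 27.3% of cells at 14 months and in 23.4% at 4 months.

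Nfkbia (ENSMUSG00000021025, chr12:55489410-55492647, minus strand) was the most widely detected member. Its lowest, median and highest levels were 0, 14.9 and 783 TPM in 14-month set 4, 0, 40.6 and 780.0 TPM in 14-month set 5, and 0, 168 and 1212 TPM at 4 months. It was detected in 45 of 66 cells at 14 months (68.2%, 55.6 to 79.1%) and in 57 of 64 at 4 months (89.1%, 78.8 to 95.5%). Where it was found, 14-month cells had a median of 129 TPM and 4-month cells one of 283 TPM. The relative difference was -2.00 pooled, which ranks 60 from the lowest, -2.07 in set 4 and -1.90 in set 5. Nfkbia also followed the number of genes detected most closely of the members (r = 0.47 over 130 cells, after each of the 3 column groups was centred). With cells of the ages paired on genes detected, its difference was -1.45.

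Tnfaip3 (ENSMUSG00000019850, chr10:19000910-19015657, minus strand) encodes a ubiquitin-editing enzyme that shuts down signalling to NF-kB. Its lowest, median and highest levels were 0, 0 and 258 TPM in 14-month set 4, 0, 0 and 211 TPM in 14-month set 5, and 0, 0.67 and 830 TPM at 4 months. It was detected in 14 of 66 cells at 14 months (21.2%, 12.1 to 33.0%) and in 31 of 64 at 4 months (48.4%, 35.8 to 61.3%). The cells that had it ran the other way, with a median of 50.8 TPM at 14 months and 21.5 TPM at 4 months. The relative difference was -0.77 pooled, -0.48 in set 4 and -0.96 in set 5.

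**Figure D2:**
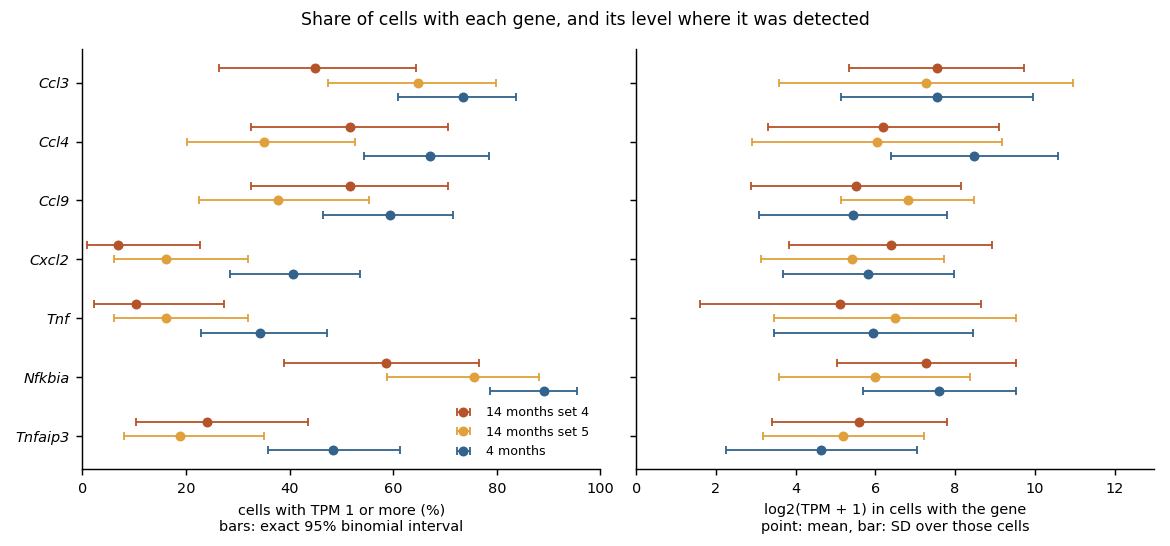
Left, the share of cells in which each of the 7 detected genes reached TPM 1 or more, with exact 95% binomial intervals that cover counting error only; right, the mean log2(TPM + 1) in the cells that had the gene, with the SD over those cells. The 14-month points (set 4 above set 5) lie left of the 4-month point in every row of the left panel, while on the right the SD bars overlap for every gene and Ccl4 has means of 6.20 in set 4, 6.04 in set 5 and 8.48 at 4 months.

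Ordered by mean log2(TPM + 1), the genes ran at 14 months Nfkbia (4.42 ± 3.60), Ccl3 (4.18 ± 4.35), Ccl9 (2.75 ± 3.38), Ccl4 (2.60 ± 3.60), Tnfaip3 (1.16 ± 2.39), Tnf (0.87 ± 2.33) and Cxcl2 (0.70 ± 2.00). At 4 months the order was Nfkbia (6.78 ± 3.01), Ccl4 (5.70 ± 4.37), Ccl3 (5.54 ± 3.94), Ccl9 (3.28 ± 3.19), Cxcl2 (2.37 ± 3.18), Tnfaip3 (2.28 ± 2.83) and Tnf (2.09 ± 3.17). The errors are SDs over 66 and 64 cells. No neighbours in either order are apart by more than these SDs. Ccl4 stands after Ccl9 at 14 months and before Ccl3 at 4 months.

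Cells of 14 months held fewer of the genes at a time. The median number of members detected in a cell was 3 at 14 months (2 in set 4 and 3 in set 5) and 4 at 4 months, with means of 2.58 ± 1.56 at 14 months and 4.12 ± 1.64 at 4 months (SD over cells). Cells with 4 or more members made up 18 of 66 (27.3%) at 14 months and 40 of 64 (62.5%) at 4 months, with 27.6% for set 4 and 27.0% for set 5. At least 2 members at 100 TPM or more were found in 36.4% of 14-month cells and 73.4% of 4-month cells. No cell had more than 7 members, since Il1b was listed at 0 in all. Cells of 14 months also had fewer genes detected. In 50 pairs of cells, 1 of each age, matched to within 10% in the number of genes detected, the medians were 3669 genes at 14 months and 3811.5 at 4 months, and the mean number of members was 2.72 at 14 months and 3.78 at 4 months.

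**Figure D3:**
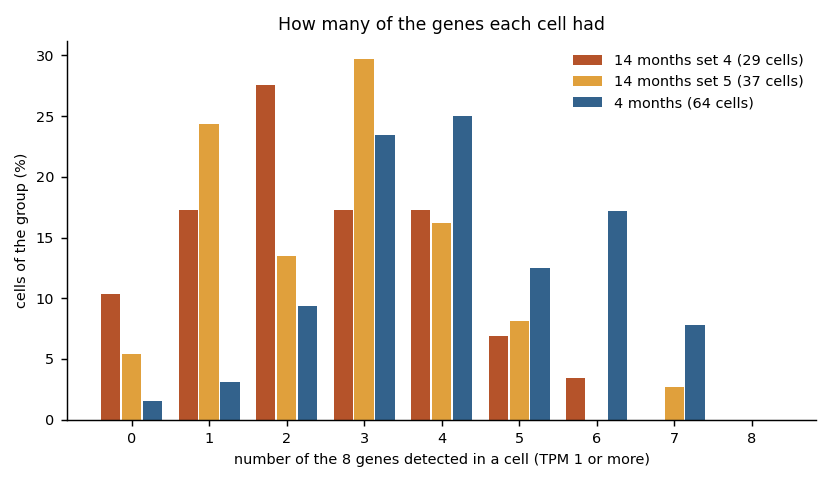
Share of cells of each group, in percent, against the number of the 8 genes detected in the cell. Bars stand for 14 months set 4, 14 months set 5 and 4 months, left to right; cells with 6 members are 1 of 66 at 14 months and 11 of 64 at 4 months, and cells with 7 are 1 at 14 months and 5 at 4 months.

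The cells with the highest levels were mostly of 4 months. A score was taken as the mean log2(TPM + 1) of the 7 detected members. It had a median of 2.23 (0 to 6.91) at 14 months and 4.07 (0 to 7.89) at 4 months. Of the 20 cells with the highest score, 3 were of 14 months (1 of set 4 and 2 of set 5) and 17 of 4 months. The highest 14-month cell, of set 5, had all 7 genes, with Ccl3 at 803 TPM, Ccl4 at 779 TPM, Tnf at 333 TPM and Nfkbia at 123 TPM. The highest 4-month cell also had all 7, led by Nfkbia at 1212 TPM, Ccl9 at 818 TPM, Tnf at 288 TPM and Cxcl2 at 213 TPM. Ccl4, Nfkbia and Tnfaip3 were highest in the same cell in set 4, and again shared their highest cell in set 5. At 4 months 1 cell was highest for Ccl9 and Nfkbia and another for Tnf and Tnfaip3.

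Within a group, the members shared cells only weakly. Over 130 cells, with each column group centred on its own mean, the median Pearson correlation of the 21 pairs of detected members was 0.13 (Spearman 0.12), from -0.05 to 0.35. The pairs share cells and the number of genes detected in them, which goes with the members' level, so nothing is read from a value of this size. It was 0.13 in set 4, 0.05 in set 5 and 0.12 at 4 months. Ccl3 and Ccl4 stood highest at r = 0.35 (Spearman 0.34), with 0.29 in set 4, 0.31 in set 5 and 0.40 at 4 months. They were detected together in 19 of 66 cells at 14 months (28.8%, where the product of their shares is 23.8%) and in 37 of 64 cells at 4 months (57.8%, where the product is 49.3%). Next came Cxcl2 with Nfkbia at r = 0.24 and Nfkbia with Tnfaip3 at r = 0.21. At 14 months, where 45 of all 66 cells had Nfkbia, it was present in 30 of 37 cells with Ccl3, 19 of 28 with Ccl4, 21 of 29 with Ccl9, 7 of 8 with Cxcl2 and 6 of 9 with Tnf. At 4 months, where 57 of all 64 cells had it, it was present in 43 of 47 cells with Ccl3, 41 of 43 with Ccl4, 34 of 38 with Ccl9, all 26 with Cxcl2 and all 22 with Tnf.

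**Figure D4:**
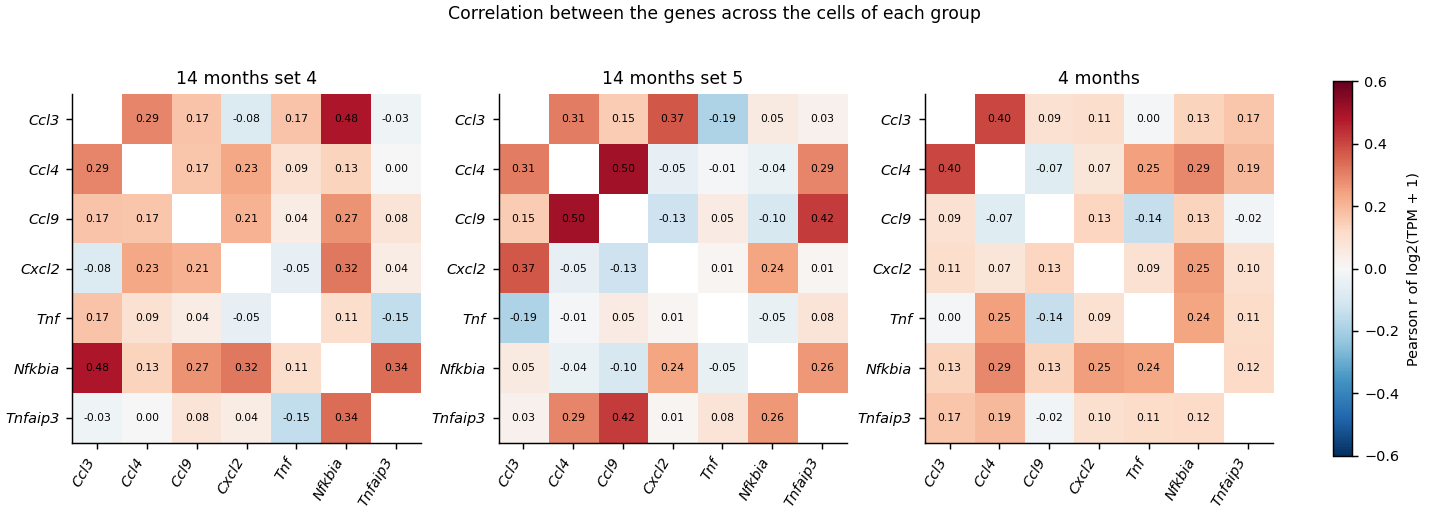
Pearson correlation of log2(TPM + 1) for each pair of the 7 detected genes, across the 29 cells of 14 months set 4, the 37 cells of 14 months set 5 and the 64 cells of 4 months, with the colour scale from -0.6 to 0.6. Ccl3 with Ccl4 is positive in each group (0.29, 0.31 and 0.40), while Ccl4 with Ccl9 is 0.50 in set 5 and -0.07 at 4 months.

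The cells with more of these genes also had more of the immediate early genes, the quickly induced transcription factor and regulator genes such as Fos, Jun and Btg2. Over the 130 centred cells, the member score followed the mean of 21 measured immediate early genes at r = 0.57 (Spearman 0.52), with 0.69 in set 4, 0.40 in set 5 and 0.60 at 4 months. Both measures rise with the number of genes detected, which the score followed at r = 0.45 (Spearman 0.39). Given that number, the partial correlation was 0.42 over all cells, 0.60 in set 4, 0.19 in set 5 and 0.41 at 4 months. By member, the correlation with the immediate early genes was 0.52 for Nfkbia, 0.46 for Ccl3, 0.32 for Ccl4, 0.29 for Tnfaip3, 0.20 for Cxcl2, 0.09 for Ccl9 and 0.05 for Tnf. Given the number of genes detected, it was 0.43 for Ccl3, 0.34 for Nfkbia, 0.22 for Ccl4 and 0.17 for Tnfaip3. The same partial values were 0.11 for Cxcl2, 0.04 for Tnf and 0.01 for Ccl9. For comparison, the score followed the mean of 8 MAP kinase feedback genes, some of them also on the immediate early list, at r = 0.49 (0.31 given the number of genes detected) and that of 15 other NF-kB inhibitor and feedback genes at r = 0.44 (0.25 given that number). It followed the mean of 6 NF-kB subunit and kinase genes at r = 0.27, which was 0.02 given the number of genes detected, and 10 proliferation genes at r = 0.09. The immediate early genes themselves were lower at 14 months, at a median of -1.21. Of the 21 measured genes 12 were lower by 1 or more (57.1%), against 5.08% of all measured genes. The part of the immediate early genes in the members' difference between ages was not tested.

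**Figure D5:**
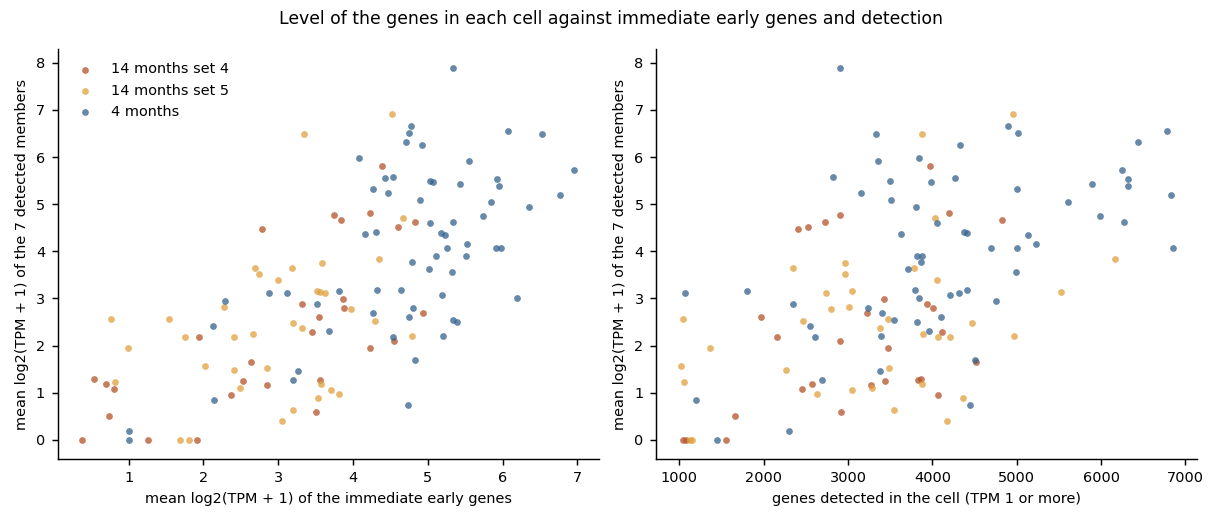
Member score of each cell, the mean log2(TPM + 1) of the 7 detected genes, against the mean log2(TPM + 1) of 21 immediate early genes (left) and the number of genes detected (right). Points are cells of 14 months set 4, 14 months set 5 and 4 months; the score rises with both measures (r = 0.57 and r = 0.45 over 130 cells, after centring each group).

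Among 5902 genes detected in 20% or more of cells, the 10 whose centred levels were most like the member score were Kdm6b, Rac2, Cd1d1, B2m, Arpc2, Rpl19, Arpc4, Ifitm2, Plac8 and Rpl35a, with r from 0.42 to 0.48 over 130 cells, against a median of 0.14 and a 95th percentile of 0.31 for all genes compared. Kdm6b, a histone H3 lysine demethylase, was first at r = 0.48 (Spearman 0.45) and 0.37 given the number of genes detected. Cd1d1, which presents lipid antigens, was at r = 0.44 and 0.40 given that number. For Rac2, a small GTPase of blood cells, r was 0.47 and 0.27 given the number of genes detected, and for the ribosomal protein gene Rpl19 it was 0.43 and 0.19.

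The machinery of the pathway was measured in the same cells, through lists chosen with earlier results of these data known. Of all measured genes, 5.08% were lower and 3.37% higher by 1 or more, so nothing is read from 1 such gene in a list. Of 8 genes of NF-kB subunits and their kinase complex, 6 were measured, and pooled over the sets none was lower or higher by 1 or more. Their median relative difference was 0.08 pooled, -0.26 in set 4 and 0.36 in set 5. Rela, the subunit that carries the main activation domain, was at -0.79 (detected in 33.3% of 14-month cells and 51.6% of 4-month cells), and Rel, the subunit typical of lymphoid cells, at 0.74 (54.5% of 14-month cells and 56.2% of 4-month cells). Of 15 measured other inhibitors and feedback genes, 1 was lower by 1 or more, Nfkbid, which encodes a nuclear IκB protein, at -1.78 (40.9% of 14-month cells and 73.4% of 4-month cells). In the same list 1 was higher by 1 or more, Tax1bp1, a partner of Tnfaip3, at 1.10. Among 15 measured receptors and adaptors, Il1r1, the signalling receptor of interleukin-1, was the 1 gene past a difference of 1. It was higher at 14 months, at 1.83 pooled, 1.66 in set 4 and 1.99 in set 5, and was detected in 62.1% of 14-month cells and 51.6% of 4-month cells.

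Of 13 measured genes for proteins that bind or remove such mRNAs, 3 were lower by 1 or more (23.1%, against 5.08% of all measured genes). The list's median was -0.11. Zfp36, which encodes tristetraprolin, a protein that binds AU-rich elements and speeds the decay of Tnf mRNA, was at -2.31, with a mean of 276 TPM at 14 months and 759 TPM at 4 months. Khsrp, another AU-rich element binding protein, was at -1.29. Of 8 measured MAP kinase phosphatase and feedback genes, 5 were lower by 1 or more (62.5%), with a median of -1.39. This list shares Dusp1 and Dusp2 with the immediate early list.

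Other chemokine genes were detected in few cells or in none. None of 25 other chemokine genes was detected in enough cells to count as measured, and 13 of them, among them Cxcl1, Ccl7 and Ccl22, were listed at 0 in every kept cell. The highest share at 14 months was that of Ccl2, in 9.09% of 14-month cells and 4.69% of 4-month cells. The highest at 4 months was that of Cxcl10, in 4.55% of 14-month cells and 12.5% of 4-month cells, and both were named after their values were seen. Of 24 other inflammatory cytokine genes 7 were measured. None of these was lower by 1 or more and 1 was higher, Hmgb1, a nuclear protein that acts as an alarm signal when released, at 1.12. Il1a and Il6 were among 7 listed at 0 in every kept cell. Of 6 measured genes on a list of inflammasome, interleukin-1 and protease genes, none was lower by 1 or more and 1 was higher. This was Adam10, at 1.18, a cell surface protease and not the enzyme that cuts the Il1b precursor. Casp1, which encodes that enzyme, was at 0.997. With 3.37% of all measured genes higher by 1 or more, nothing is read from 1 such gene in a list. Of 12 chemokine receptor genes 5 were measured and none passed a difference of 1, the lowest being Ccrl2 at -0.97, an atypical receptor that does not signal by itself.

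Markers of other cell types that make these chemokines were looked for in the kept cells. For macrophages and monocytes, Adgre1, C1qa and C1qb were listed at 0 in every kept cell, 6 of 14 markers were found in any 14-month cell and 7 of 14 in any 4-month cell. Lyz2, the widest of that list, was detected in 56.1% of 14-month cells and 64.1% of 4-month cells, Cd68 in 24.2% of 14-month cells and 26.6% of 4-month cells, and Csf1r in 6.06% of 14-month cells and 26.6% of 4-month cells. The summed level ran from 0 to 6235 TPM (median 50.9) at 14 months and from 0 to 1446 TPM (median 204) at 4 months. For neutrophils, Ngp, Ltf and Ly6g were at 0, and 6 of 11 markers were found at each age. Cxcr2, the widest of them, was detected in 56.1% of 14-month cells and 82.8% of 4-month cells. The sum ran from 0 to 364930 TPM (median 2.42) at 14 months and from 0 to 995 TPM (median 5.26) at 4 months. The 14-month maximum is a single set 5 cell with 1021 detected genes, in which Camp, the gene of the granule peptide cathelicidin, held all of that sum and the only member detected was Ccl3 at 1933 TPM. For basophils and mast cells, Prss34, Cpa3, Fcer1a and Ms4a2 were at 0, 4 of 9 markers were found at 14 months and 5 of 9 at 4 months, and the sums reached 311 TPM at 14 months and 282 TPM at 4 months. Of those found, Cd200r3 was detected in 7.58% of 14-month cells and 34.4% of 4-month cells. Gata2 was detected in 12.1% of 14-month cells and 29.7% of 4-month cells, and Mcpt8 in 7.58% of 14-month cells and 6.25% of 4-month cells. For T and NK cells, which can make Ccl3 and Ccl4, Cd3e, Gzma, Ncr1 and Prf1 were at 0, 3 of 10 markers were found at 14 months and 4 of 10 at 4 months, and the sum reached 4136 TPM (median 162) at 14 months and 1615 TPM (median 19.7) at 4 months. Nkg7, the widest of that list, was detected in 72.7% of 14-month cells and 54.7% of 4-month cells. For dendritic cells, 8 of 11 markers were found at 14 months and 10 of 11 at 4 months, among them Flt3, which the sort selects for. Their sum reached 2168 TPM (median 193) at 14 months and 22379 TPM (median 337) at 4 months. H2-Aa reached 1779 TPM in a 14-month cell and 8775 TPM in a 4-month cell. Across centred cells, the member score followed the 4 measured macrophage markers at r = 0.21 (0.07 given the number of genes detected) and the 2 measured basophil markers at 0.09. The neutrophil list and the T and NK list each had 1 measured gene, Cxcr2 and Nkg7, and the score followed each at 0.10. Of the other lists, r was 0.29 for the 1 measured B cell marker (0.18 given the number of genes detected). The B cell value was 0.15 in set 4, 0.07 in set 5 and 0.43 at 4 months. For 8 granulocyte-monocyte progenitor genes r was 0.29 (0.11 given that number), and for 6 dendritic cell markers 0.24 (0.08). Early lymphoid genes were at 0.26 (0.07), stem cell genes at 0.21 (0.07) and the 1 measured megakaryocyte and erythroid marker at -0.03 (-0.08). The score had r = -0.26 with the share of mitochondrial TPM (-0.12 given the number of genes detected). Without the set 5 cell high in Camp, the median difference of the members was -1.13. The part of the other markers was not tested.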

How the data were processed

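Single LMPPs were measured as TPM values in a deposited table of 38924 genes and 168 columns, made by the authors with Bowtie2 2.2.0, RSEM 1.2.12 and build mm10 per the submitters' processing notes. Columns show the age, not which labelled cell they are; there are 84 columns of each age for 83 (14 months) and 84 (4 months) labelled cells. Each column sums to 1000000 TPM, so depth is lost and sampling error cannot be given for a level. Kept were cells with 1000 or more genes at TPM 1 or more. Doublets were not called, since chambers were imaged per the labels' protocols and callers need counts. Levels were averaged as log2(TPM + 1), with a pseudocount of 1, and differences centred on the median of genes detected in 10% or more of kept cells, averaged over the ages, a filter that 7 of the 8 members passed. Correlations used log2(TPM + 1) centred within set 4, set 5 and 4 months. The members and all gene lists were chosen with earlier results of these data known. Genes could be named if they were members, among the 2 lowest or 2 highest measured genes of a list, the top marker of a marker list or among the 10 genes most like the member score. Not all of these are described, and marker genes at 0 or named beside the top marker were chosen after their values were seen. Symbols were matched for 37607 rows; no column went unused. Alternatives were other pseudocounts, filters, scalings, detection thresholds and subsets of cells. The tools were numpy 2.4.6, scipy 1.17.1, pandas 2.3.3 and matplotlib 3.10.9 under Python 3.11.15. The calculation of age differences was tested on known folds planted in copies of the 4-month cells. That of correlations and partial correlations was tested on random numbers, and the other steps had no such test. Some items are not reported here.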

Additional observations from a re-analysis of the deposited data

Results flagged for a closer look

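Signal of these genes also appeared in the columns left out for having fewer than 1000 detected genes, which no comparison uses: 22 of the 38 had at least 1 member at TPM 1 or more. They were 11 of 18 columns of 14 months and 11 of 20 of 4 months, and 14 of the 38 had a member at 100 TPM or more. The highest values were Ccl3 at 2298 TPM in a 14-month column of set 5 and Tnfaip3 at 2380 TPM in a 4-month column. Just under the limit were set 4 columns with 943, 955 and 998 genes and 1 member each. Just above it were kept cells with 1021 and 1041 genes in set 5, with 1 and 2 members, and with 1043 genes in set 4, with none.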

How the results depend on the processing

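Ccl3, at -1.01, was at -1 or lower in 7 of 13 alternatives; it was -0.47 with all columns, -0.64 with a pseudocount of 10 and -0.79 in cells with 2000 or more genes. Nfkbia, at -2.00, ran from -2.42 to -1.21, the last with all columns. The count of members lower by 1 or more was 2 with a pseudocount of 10, against 4, and ran from 2 to 6 over 15 alternatives. The share of all measured genes was not worked out at the same settings, so nothing is read from these counts. The members' median difference was -1.42 with a pseudocount of 0.1, -2.09 with medians over cells and -1.50 with set 4 only, against -1.01, and stayed below 0 in all 15. The median number of members per cell was 2 at 14 months and 3 at 4 months with detection at TPM 10 or with all columns, and 2 at 14 months with set 4 only. The median correlation of members, 0.13, was 0.18 with all columns, 0.078 after quantile normalisation and 0.079 given the number of genes detected. That with the immediate early genes, 0.57, was 0.74 with all columns and 0.42 given the number of genes detected; the cause was not tested. Of 91 values of single members, 87 were below 0; the exceptions were 2 values of Ccl9, and those of Cxcl2 and Tnf with medians over cells, which were 0. The partial correlations and the subsets by mitochondrial share and neutrophil markers were chosen after seeing the data. No paired analysis was possible because the columns carry no label numbers and no result comes from a test. TPM keeps no depth, so low and absent levels cannot be told apart.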
